A study of Rattus norvegicus with 24 samples.

Results

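The genes described here, 69 of 31998 in a count table from rat plantaris, a calf muscle that extends the ankle, were near silent in control muscle and clearly counted after functional overload. The rule asked for a mean below 0.5 CPM (the gene's count per 1000000 counts of its library) over the 12 control libraries. It also asked for a mean of at least 2 CPM over the 6 overloaded libraries of each rat line. One further gene met these thresholds and was left out by the rule. Because the rule used overload against control, the rise of these genes is how they were chosen and is given below as a description, without a test.

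RNA was sequenced from female rats aged 14 months, of generation 19 of the LRT and HRT lines, which were bred for a low or a high response to endurance training. In the overloaded groups (HRT overload and LRT overload, 6 libraries each) the gastrocnemius and soleus of one side had been ablated, and the plantaris was taken 14 days later. The control groups (HRT control and LRT control, 6 libraries each) carried the treatment label control. Nothing in the labels ties a control muscle to its own rat or to the opposite leg of an operated one, so p-values measure the spread between these libraries.

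Functional overload moves the work of the removed muscles onto the plantaris, which then grows. In this model, growth of muscle fibres goes along with proliferation of satellite cells, the stem cells of muscle, and with remodelling of the extracellular matrix, blood vessels and nerve endings. White blood cells also enter the muscle after the surgery. A gene can therefore be nearly absent from resting muscle RNA and appear after overload either because resident cells switch it on or because cells that carry its RNA become more numerous. In whole muscle RNA, a change in the number of such cells and a change in RNA per cell cannot be told apart.

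The deposited table names genes by Ensembl identifier and does not pair them with symbols, and 0 identifiers matched the name table used here. The roles of the 69 genes, their membership of pathways and cell type lists, their sequences and the tissue's own markers were therefore not analysed here. Identifiers are printed for 4 genes, chosen by level, by spread or by the line test, and the others are given by counts, ranges or their place in the set. Library totals ran from 26997674 to 34254957 estimated counts. RNA integrity number (RIN) averaged 8.27 ± 0.216 (SD, n = 6) in HRT control, 8.97 ± 0.327 in HRT overload, 8.28 ± 0.147 in LRT control and 8.67 ± 0.258 in LRT overload, so it moved with overload. With RIN as a covariate the median log2 fold change of the 69 genes between overload and control, given below, was 3.48 in HRT and 3.07 in LRT.

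In control muscle the 69 genes were low but rarely at 0. Mean control levels ran from 0.0553 to 0.494 CPM, with a median of 0.359. At least 1 estimated count was present in all 12 control libraries for 58 of the genes, and the gene detected least often had one in 8. The genes' lowest control count had a median of 2.996 and their highest control count a median of 20.01. Together the 69 genes held between 19.2 and 29.3 CPM of each control library. Near silent thus means a level of a few counts in these libraries, not absence.

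After overload most of the genes stayed modest in level and a few became abundant. Mean levels over the 12 overloaded libraries ran from 2.23 to 215 CPM, with a median of 3.35. Only 12 genes reached 10 CPM and 4 reached 20 CPM, while 51 stayed under 5 CPM. CPM is not corrected for transcript length, so these levels order counts, not transcripts. The ratio of mean overloaded to mean control CPM ran from 5.11 to 949.9, with a median of 10.5. It was over 20 for 19 genes and over 100 for 5 genes. Between the group coefficients of an edgeR model of all libraries, the median log2 fold change was 3.23 in HRT (range 1.91 to 10.21) and 3.03 in LRT (range 1.89 to 8.15). Log2 fold changes over 4 were found for 18 genes in HRT and 19 in LRT. The medians over all 16661 tested genes were −0.02 in both lines.

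**Figure D1:**
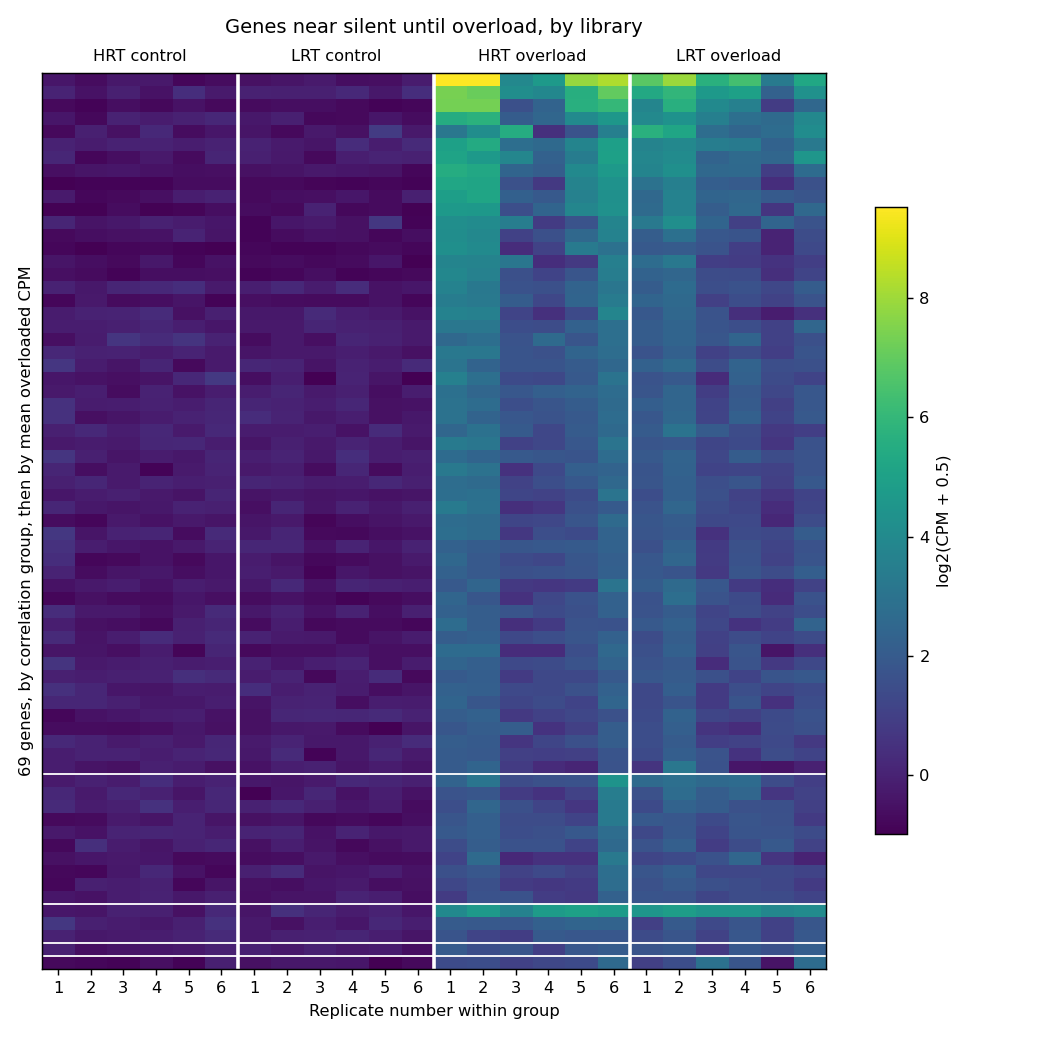
Each row is 1 of the 69 genes and each column 1 of the 24 libraries, coloured by log2(CPM + 0.5), with white lines between the sample groups and between the correlation groups of genes. Control columns are uniformly dark, while overloaded columns differ from one another, with HRT overload replicates 1, 2 and 6 and LRT overload replicate 2 the brightest.

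The rise was present in nearly every overloaded library. For 61 of the 69 genes every overloaded library lay above every control library, and 17.9% of all tested genes showed such a rise. This comparison follows from the rule and nothing is read from it. Of the 828 single values in overloaded libraries, 10 were at or below the gene's highest control library (1.21%) and 6 were below 0.5 CPM. LRT overload replicate 5 held 4 of the 10 values and LRT overload replicate 3 held 3. A level of 2 CPM was reached in all 12 overloaded libraries by 8 genes, in at least 9 by 42 genes and in fewer than 7 by 7 genes, with 5 libraries as the minimum. The highest library held 11.6% to 31.6% of a gene's sum over overloaded libraries, with a median of 18.1%. Membership rested on a single library for some genes: without LRT overload replicate 2, 13 of the 69 fell below a threshold. Without HRT overload replicate 6 it was 5, without LRT overload replicate 4 it was 4, and without LRT overload replicate 1 it was 3.

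ENSRNOG00000002548 had the highest mean. It lay between 0.0634 and 0.381 CPM in the 12 control libraries, which is 1.93 to 11.9 estimated counts. In HRT overload its lowest, median and highest libraries were at 14.6, 269 and 737 CPM, and in LRT overload at 9.49, 66.9 and 247 CPM. Every overloaded library was therefore far above every control library, although overloaded libraries of one line differed by more than 20 times. Replicates 1 and 2 were the highest of HRT overload, at 728 and 737 CPM, and replicates 3 and 4 the lowest, at 14.6 and 24.8 CPM. This single gene made up 37.1% of the summed mean CPM of the 69 genes in HRT overload and 23.0% in LRT overload.

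ENSRNOG00000004578 was second in mean level. Its control libraries lay between 0.211 and 0.799 CPM. In HRT overload the lowest, median and highest libraries were at 14.0, 88.0 and 164 CPM, and in LRT overload at 4.34, 28.4 and 61.2 CPM. The same libraries stood high and low as for ENSRNOG00000002548, with HRT overload replicates 1 and 2 at the top and LRT overload replicate 5 at the bottom of its group.

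**Figure D2:**
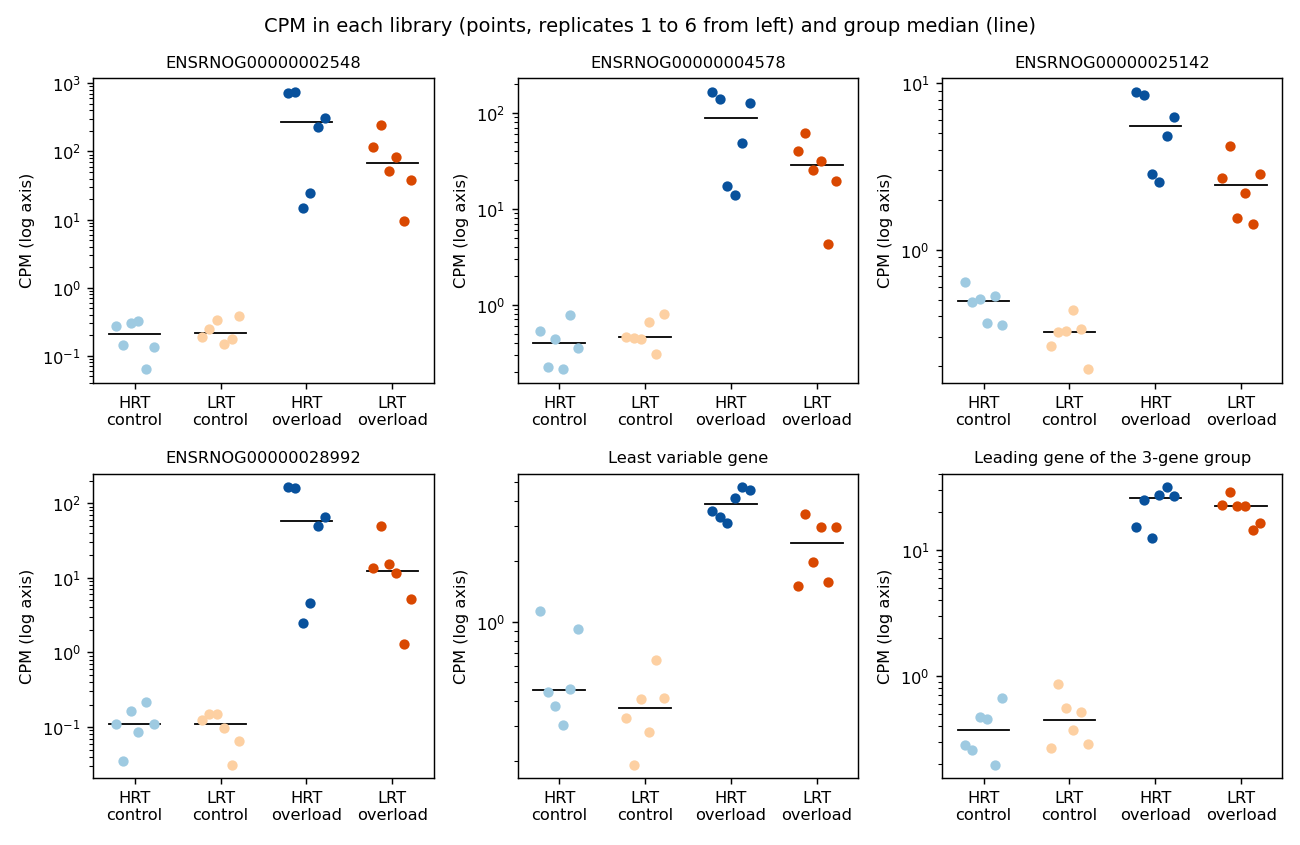
CPM on a log axis for 6 genes described in the text, 1 panel each, with 1 point per library (replicates 1 to 6 from left to right in each group) and a line at the group median. Overloaded points lie above control points in each panel, while the lines overlap after overload, and the points of the least variable gene and of the leading gene of the 3-gene group spread less than those of the other 4 genes.

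How far the genes rose differed between muscles of the same group. The median CPM over the 69 genes was between 0.255 and 0.424 in the control libraries. In HRT overload it was 6.12, 5.76, 2.29, 2.03, 2.93 and 6.1995 CPM in replicates 1 to 6, a 3.05-fold range. In LRT overload it was 2.99, 4.58, 2.22, 2.64, 1.63 and 2.61 CPM, a 2.82-fold range. All overloaded libraries were above all control libraries, and the HRT and LRT overload ranges overlapped. The summed level ran from 149 CPM in LRT overload replicate 5, also the lowest by median, to 1684 CPM in HRT overload replicate 1. HRT overload replicate 6, the highest by median, had a sum of 1071 CPM. The number of genes at 2 CPM or more was 69 in HRT overload replicate 6 and in LRT overload replicate 2, but 24 in LRT overload replicate 5.

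**Figure D3:**
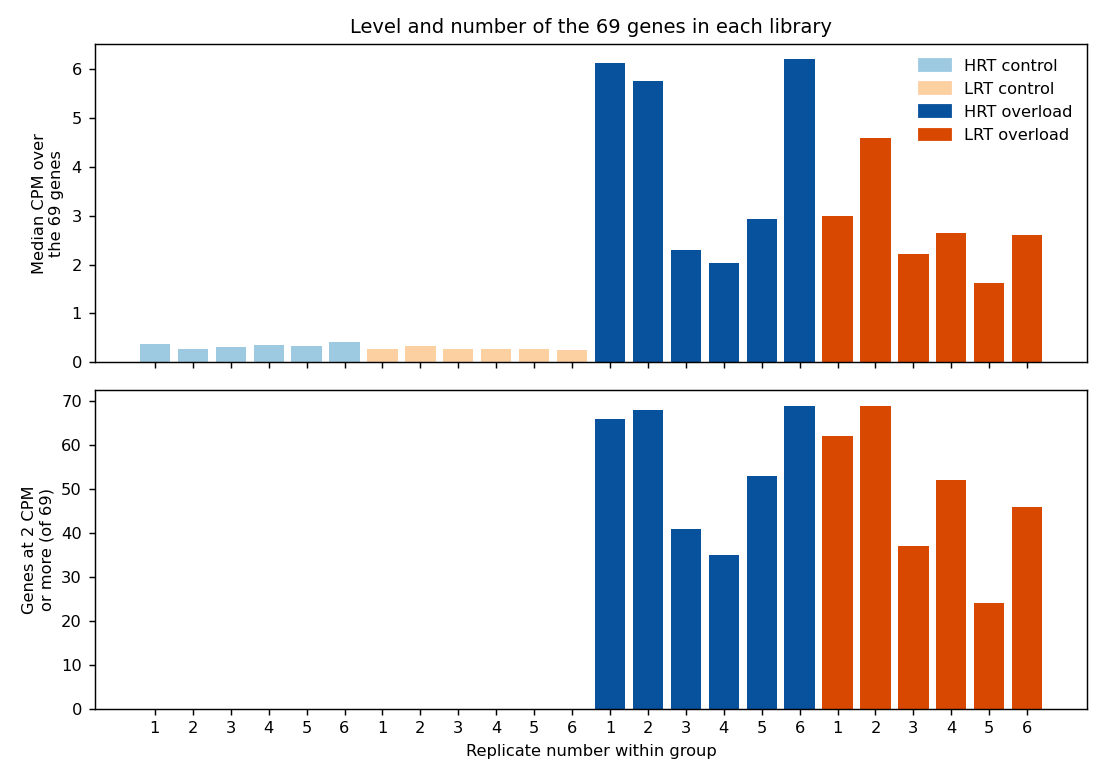
Bars give, for each of the 24 libraries, the median CPM over the 69 genes (upper panel) and the number of the genes at 2 CPM or more (lower panel), coloured by group. No gene reaches 2 CPM in a control library, and the overloaded libraries run from 24 genes to 69 genes.

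A few libraries held most of the extremes. HRT overload replicate 1 was the highest overloaded library for 32 of the 69 genes and HRT overload replicate 6 for 19. LRT overload replicate 5 was the lowest for 30 genes and LRT overload replicate 3 for 15. Within lines, over the 12 overloaded libraries, the median level of the genes correlated with RIN at r = −0.294 and with the library total at r = −0.524, as descriptions. HRT overload replicates 1 and 2 had a RIN of 8.6, and HRT overload replicate 3, a low library, had 9.4. Other libraries went the other way. HRT overload replicate 6, the highest by median, had a RIN of 9.2, and LRT overload replicate 3, a low library, had 8.2. The part of RIN and depth in these differences between libraries was not tested.

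The 69 genes varied more between muscles of a group than most genes expressed in overloaded muscle. The SD of log2(CPM + 0.5) within lines had a median of 0.72 over the 69 genes (range 0.34 to 2.10). Over 12458 other genes with at least 2 CPM in both overloaded groups the median was 0.21. Among the 69 genes, 62 were above 0.42, the 90th percentile of those other genes. Restricting both sets to a mean of up to 20 CPM gave 0.71 for 65 of the genes and 0.24 for 6872 others. In control libraries the median SD of the 69 genes was 0.26, at levels where the added 0.5 CPM compresses differences. These are descriptions of genes selected for a large change, and no test was made of them. The more abundant genes varied more, with a median SD of 1.25 for the 12 genes of at least 10 CPM and 0.58 for the 51 under 5 CPM. The SD was larger in HRT overload than in LRT overload for 53 of the 69 genes. The share of other genes with a larger SD in HRT overload is not given here. The 69 genes also move together, as described below, so these 53 are not independent.

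ENSRNOG00000028992 varied most, with an SD of 2.10 on this log2 scale. Its lowest, median and highest libraries were at 2.48, 57.1 and 162 CPM in HRT overload and at 1.30, 12.4 and 49.9 CPM in LRT overload, against 0.0315 to 0.218 CPM in control libraries. It rose and fell across overloaded libraries with ENSRNOG00000002548, with r = 0.987 over 12 libraries centred within line, the highest of any pair of the 69 genes. The least variable of the 69 genes had an SD of 0.34. It lay at 3.11, 3.88 and 4.68 CPM (lowest, median and highest) in HRT overload and at 1.497, 2.47 and 3.44 CPM in LRT overload. Its control libraries ran from 0.193 to 1.14 CPM, so its mean of 0.492 CPM was just inside the control threshold.

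Most of the genes moved together from muscle to muscle. Over the 12 overloaded libraries, centred within line, the median correlation over the 2346 pairs of genes was 0.652, with quartiles of 0.454 and 0.807. It was above 0.5 in 70.2% of pairs and below 0 in 1.53%. Pairs of the 12458 other genes had a median of 0.225, with 30.8% above 0.5. All pairs share libraries and scaling, so the values describe these muscles and carry no p-value. Among control libraries the median was 0.0602, at levels where counting error is a large part of the value. Computed in 1 line at a time, the median was 0.784 in HRT overload and 0.614 in LRT overload, and it stayed between 0.615 and 0.702 with any single overloaded library left out.

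Average-linkage clustering of these correlations, divided at a distance of 0.5, placed 54 genes in a first group, 10 in a second and 3 in another, with 2 genes on their own. The first group held the most abundant gene and had a median correlation of 0.767 between its members. Its mean deviation from a gene's own mean in its line was 0.89, 0.77 and 0.59 log2 units in HRT overload replicates 1, 2 and 6. It was −0.89 and −1.06 in replicates 3 and 4. In LRT overload it was highest in replicate 2, at 0.94, and lowest in replicate 5, at −0.83.

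The second group of 10 genes, with means of 2.23 to 5.67 CPM, had its highest levels in a single muscle. Its mean deviation was 1.39 log2 units in HRT overload replicate 6 and −0.16 in HRT overload replicate 1, the library that led the first group. Median CPM of these 10 genes was 7.75 in replicate 6 and 2.42 in replicate 1. In LRT overload its deviations were smaller, from −0.64 in replicate 6 to 0.52 in replicate 2. The correlation between genes of the first and second groups had a median of 0.512, against 0.807 within the second group. These groups were formed after the values were seen, and at a distance of 0.6 the largest group held 64 genes, at 0.4 it held 46.

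**Figure D4:**
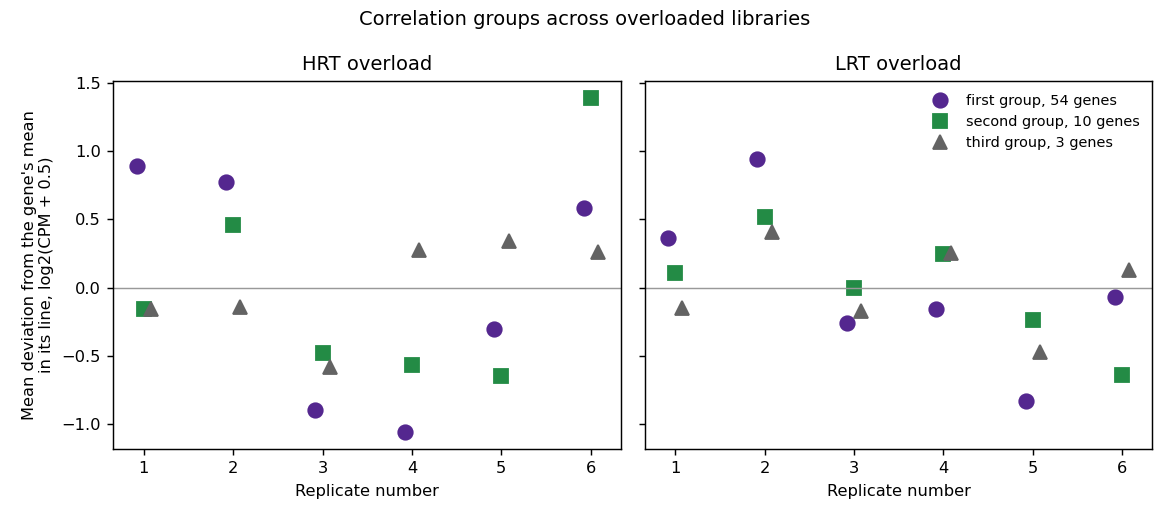
Points give the mean deviation of each correlation group in log2(CPM + 0.5) from the gene's own mean in its line, for overload replicates 1 to 6 of HRT (left) and LRT (right). The first and second groups part in HRT overload replicate 1 (0.89 and −0.16) and replicate 6 (0.59 and 1.39).

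The remaining group, of 3 genes, followed the first group only in part, with a median correlation of 0.263 between its genes and those of the first group. In LRT overload its mean deviation was highest in replicate 2, at 0.41, and lowest in replicate 5, at −0.47, as for the first group. In HRT overload it was lowest in replicate 3, at −0.58, and highest in replicate 5, at 0.34, where the first group was at −0.30. The most abundant gene of the 3 was singled out after its values were seen. In HRT overload its lowest, median and highest libraries were at 12.3, 25.9 and 31.2 CPM, and in LRT overload at 14.3, 22.1 and 28.6 CPM, while control libraries lay between 0.197 and 0.867 CPM. Replicates 4 and 5 of HRT overload, low for the first group, were its highest in that group at 27.3 and 31.2 CPM. The lines overlapped throughout, with a log2 difference (LRT minus HRT overload) of −0.00 ± 0.211 (SE, edgeR adjusted p = 0.998). It ranked number 4 in mean level among the 69 genes, with an SD of 0.45 on the log2 scale.

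The comparison nearest to independent of the rule is the one between the lines in overloaded muscle, LRT minus HRT. It asks whether genes that were near silent before overload reached the same level in both lines. Since the rule required 2 CPM in each line, genes that rose in 1 line alone could not be members. The comparison is thus not free of the rule, which set limits on the same group means. The test was edgeR's quasi-likelihood test over all 16661 tested genes, among them all 69, with Benjamini-Hochberg adjustment. The log2 difference was below 0 for 56 of the 69 genes (81.2%, against 51.7% of all tested genes), with a median of −0.41 (range −2.03 to 0.60), against −0.01 over all genes. The genes move together between libraries, so these 56 are not independent observations.

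Few of these differences passed the test after adjustment over all tested genes. One gene passed an adjusted p of 0.05, ENSRNOG00000025142, lower in LRT, which is 1.45% of the members against 1.49% of all tested genes called lower. No member was called higher, against 1.6% of all genes (3.09% in either direction). A share this near the background is not a result about these genes. At an unadjusted p under 0.05, 20 of the 69 genes (29.0%) were lower in LRT and 0 were higher, against 12.6% and 9.64% of all genes. Differences of more than 2-fold were seen for 14 genes, all lower in LRT. The share of all tested genes with such a difference is not given here, so nothing is read from this count. No gene had HRT and LRT overload libraries that did not overlap, against 1.7% of tested genes with all HRT libraries above all LRT libraries and 0.438% the other way.

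ENSRNOG00000025142 lay at 2.56, 5.56 and 8.84 CPM (lowest, median and highest) in HRT overload and at 1.43, 2.45 and 4.22 CPM in LRT overload. The groups overlapped: 4 of the 6 HRT libraries were above every LRT library. Its log2 difference was −1.01 ± 0.241 (SE, edgeR adjusted p = 0.0252). In control muscle it was at 0.477 ± 0.107 CPM in HRT and 0.312 ± 0.0810 in LRT (SD, n = 6; log2 difference −0.51, edgeR adjusted p = 0.489). The call held in 16 of 23 other settings, with adjusted p from 0.00698 to 0.149, and was lost with only the 2 overloaded groups in the fit (edgeR adjusted p = 0.149). It was also lost without HRT overload replicate 1, 2 or 6 or LRT overload replicate 3, 4 or 5.

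For the 3 genes of highest mean level the line difference was larger in size than for ENSRNOG00000025142 and less certain. It was −1.73 ± 0.684 log2 units for ENSRNOG00000002548 (SE, edgeR adjusted p = 0.140) and −1.29 ± 0.494 for ENSRNOG00000004578 (edgeR adjusted p = 0.131). For ENSRNOG00000028992 it was −2.03 ± 0.713 (edgeR adjusted p = 0.106). Over 23 other settings these 3 differences stayed below 0, and they passed in 1, 2 and 4 of the settings. For the least variable gene the line difference was −0.57 ± 0.256 (edgeR adjusted p = 0.190). For the gene that ranked number 4 in mean level, described above, it was −0.00 ± 0.211 (edgeR adjusted p = 0.998). A larger difference was thus not found for every abundant gene. The standard errors of the first 3 genes are 2 to 3 times that of ENSRNOG00000025142.

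Single muscles decided how many of the 69 genes passed. Without HRT overload replicate 3, without HRT overload replicate 4 or without LRT overload replicate 2, 14 genes passed, all lower in LRT. The share of all tested genes called also rose in these settings, from 3.09% to 9.81%, 8.49% and 9.23%. Without HRT overload replicate 1, 2 or 6, or LRT overload replicate 3, 4 or 5, 0 passed. The share of all tested genes called also fell in these settings, to between 1.02% and 1.57%. Unadjusted p-values under 0.05 numbered 15 to 22 of the 69 there, for which the share over all genes is not given here. With RIN as a covariate 7 genes passed, with 4.71% of all genes called. With libraries scaled by totals alone 7 passed, with 12.9% of all genes called, and this scaling shifted the median of all genes by −0.145. Over 22 settings that tested all 69 genes, between 48 and 64 of them were below 0.

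**Figure D5:**
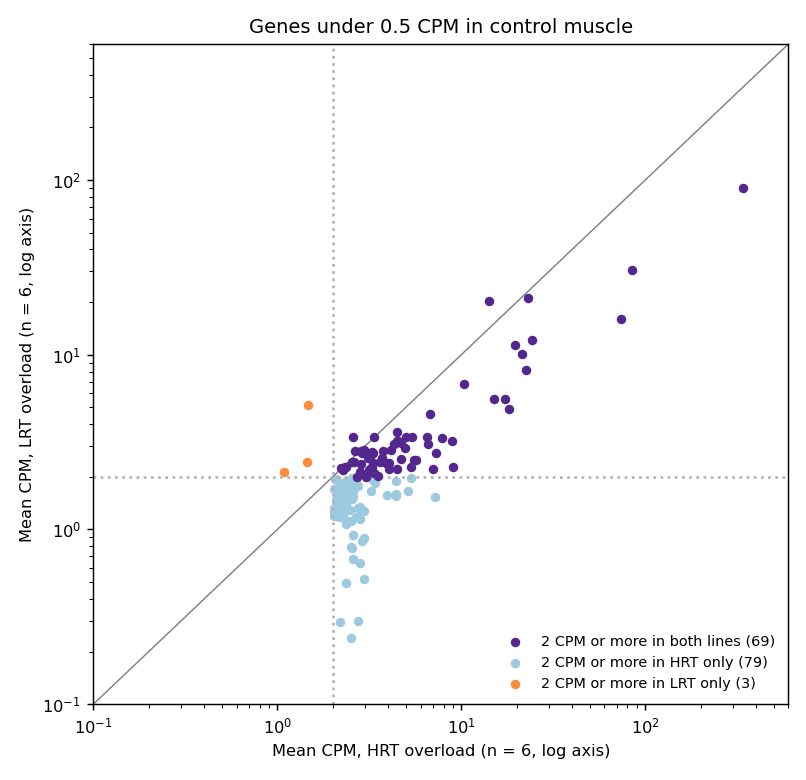
Each point is a gene with a mean below 0.5 CPM in control muscle, placed by its mean CPM in HRT overload (x) and LRT overload (y), both on log axes, with dotted lines at 2 CPM and a diagonal of equal means. Of the 69 genes past both thresholds, 64 lie below the diagonal, and 79 other genes pass in HRT alone against 3 in LRT alone. CPM here is on library totals, a scale on which the median LRT minus HRT difference of all tested genes was −0.153 log2 units. In the fit with TMM scaling that median was −0.01, and 56 of the 69 genes were below 0.

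In control muscle and in the size of the response, no gene of the 69 differed between lines past the threshold. In control muscle 0 of the 69 passed edgeR's test, against 1.97% of all tested genes, and 3 had an unadjusted p under 0.05, against 16.6% of all genes. The median log2 difference was −0.11 and the median SE was 0.51 at these low counts. For the difference between the responses of the lines, 0 passed in edgeR, DESeq2 and limma-voom. Of all genes, 0.048% passed in edgeR, 0.84% in DESeq2 and 0.012% in limma-voom. Unadjusted p-values under 0.05 numbered 2 in edgeR (2.9%, against 13.6% of all genes). They numbered 7 in DESeq2 and 0 in limma-voom, for which the share over all genes is not given here. The difference was below 0 (LRT minus HRT) for 53 of the 69 genes (76.8%, against 53.5% of all genes). Its median was −0.36 log2 units, with a median SE of 0.61. This comparison carries the counting error of the control libraries as well.

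At the control and LRT overload limits, genes lay close on both sides. The 3 genes nearest inside the control limit had means of 0.494, 0.492 and 0.489 CPM, and the 3 nearest outside had 0.504, 0.506 and 0.509 CPM. At the LRT overload limit the nearest inside were 2.00006, 2.00361 and 2.03 CPM and the nearest outside were 1.98, 1.96 and 1.96 CPM. At the HRT overload limit the nearest inside were 2.22, 2.27 and 2.34 CPM and those outside were 1.47, 1.46 and 1.09 CPM.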

How the data were processed

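The authors deposited 1 table of estimated counts per Ensembl gene ID, not normalized, for 24 libraries. Salmon 0.9.1 is listed, beside the builds rn6 and Rnor_6.0, per the submitters' processing notes. Annotation and settings were not given in the sources used here, and values of near-identical genes are uncertain. Libraries were TruSeq libraries of total RNA, per the labels' protocols.

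Members were taken by CPM on column totals. For tests, estimated counts were rounded. edgeR 4.0.16 in R 4.3.3 (filterByExpr with a minimum count of 10 and a minimum total of 15, TMM scaling, robust quasi-likelihood fit, a coefficient for each group) was run on all libraries and 16661 genes and adjusted over all of them (Benjamini-Hochberg, 0.05). The difference between responses and the line difference in control muscle came from the same fit. Each SE is the size of the log2 change divided by the square root of the F statistic. The fit was tested on simulated counts. Members, lists and tests were chosen with earlier results of these data known. The rule for printed genes took at most 2 identifiers per part: the 2 highest means, the genes past the line test, and the largest and smallest spread. Gene lists, markers and promoter motifs could not be applied, since 0 of the IDs matched a table of 47357 genes (GRCr8). Alternatives were DESeq2 1.42.0, limma-voom (limma 3.58.1), other scaling and filters, RIN, the replicate number as a block, and libraries left out. Plots used matplotlib 3.10.9 in Python 3.11.15.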

Additional observations from a re-analysis of the deposited data

Results flagged for a closer look

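One value stood far from the rest of its group. ENSRNOG00000028992 was at 49.9 CPM in LRT overload replicate 2, while the next highest of the 6 LRT overload libraries was at 15.3 CPM, a gap of 0.712 of the whole range in CPM. On the log2(CPM + 0.5) scale the gap was 0.349 of the range, which is not past the limit used here. Without this library its line difference was −2.71 log2 units (edgeR adjusted p = 0.0312), against −2.03 (adjusted p = 0.106) with it. The limit is set so that chance passes it in about 1 in 20 groups, a rate that was not measured on CPM here. In all, 32 groups of values were looked at.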

How the results depend on the processing

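The count of members past the line test in overloaded muscle, 1 in the edgeR fit, was 7 with library totals alone (12.9% of all tested genes called, against 3.09%), 3 with the DESeq2 Wald test (6.56%), 2 with a stricter filter on low counts (47 of the genes tested; 4.29%), 2 without robust dispersion (3.19%) and 7 with RIN as a covariate (4.71%). It was 0 with only the groups compared (0.707%), and ran from 0 to 14 with single libraries left out (1.02% to 9.81%). With the replicate number as a block it was 2 (3.52%), and 2 with the block and RIN (1.73%). The samples were treated as sharing only a number, since the labels do not say that a number is shared by an animal or batch. Deviations of same-numbered pairs did not all correlate above 0.1. They correlated between −0.0700 and 0.0760 for HRT control and overload, between −0.125 and 0.123 for LRT control and overload, and between −0.109 and 0.0192 for the control groups. For HRT and LRT overload they ran from −0.160 to 0.487, with 4 of 6 pairs above 0.1 and 2 of 6 libraries correlating best with their own number. The counts of 0 for control muscle and for the difference between responses were 0 in each of the 23 and 34 alternatives run. The number of genes chosen was 20 with a control limit of 0.25 CPM, 286 with 1 CPM, 274 with an overload limit of 1 CPM and 14 with 4 CPM. It was 48 with CPM after TMM and 57 to 75 with single overloaded libraries left out, and LRT overload replicate 2 removed the most members, 13. Under each alternative run, median fold changes moved by less than the SD of the genes' median log2 level over the 6 overloaded libraries of the line. That limit is wide, since this median level in CPM differed 3.05-fold between HRT overload libraries and 2.82-fold between LRT overload libraries. The median spread moved by less than the SD of the spread between genes. The alternatives for the fold changes, the spread and the correlations were chosen after seeing the data. Over all tested genes, 514 passed the line test in overloaded muscle, against 115 with only the groups compared and 2153 with library totals alone. Control levels rest on few counts, which limits every comparison that uses them.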

Other observations

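Near silent genes passed the overload limit in HRT more often than in LRT. Of 17362 genes below 0.5 CPM in control muscle, 149 had a mean of at least 2 CPM after overload in HRT and 73 in LRT. The 79 genes that did so in HRT alone had a median mean of 2.47 CPM there and 1.51 CPM in LRT overload, and 67 of them reached 1 CPM in LRT overload. Another 3 genes did so in LRT alone. These counts use CPM on library totals. On that scale the median LRT minus HRT difference of all tested genes in overloaded muscle was −0.153 log2 units, against −0.01 with TMM scaling. The difference between these counts was not tested.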
